A study of Homo sapiens with 6 samples.

Results

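The genes described here are TXNIP and ARRDC1, ARRDC2, ARRDC3 and ARRDC4, which encode alpha-arrestins, together with MLXIP, which encodes the transcription factor MondoA, and MLX, which encodes its partner. They were picked by name and make up 7 of the 58096 genes listed for total RNA of the ALL-SIL cell line, which was derived from a human acute leukaemia of T cells and has a rearranged TLX1 gene. Of the 6 libraries 3 came from cells given JQ1 at 1 µM for 24 h, an inhibitor that keeps BET proteins off acetylated histones, and 3 are labelled DMSO, its solvent, and both groups carry replicate numbers 1 to 3. The medium of both groups was RPMI with 20% serum, glutamine and antibiotics. The treatment text of the DMSO samples repeats the JQ1 exposure, so the groups were taken from the titles. Nothing in the labels ties the libraries of a group to separate cultures, and p-values therefore reflect only how far these libraries vary, possibly for technical reasons.

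Alpha-arrestins are adaptor proteins with an arrestin fold, and most of them carry short proline and tyrosine motifs that recruit ubiquitin ligases of the NEDD4 family to membrane cargo. TXNIP binds thioredoxin and lowers glucose uptake by promoting the internalisation of glucose carriers. MondoA pairs with MLX and enters the nucleus when glucose 6-phosphate is plentiful, where the pair binds E-box-like elements, and TXNIP and ARRDC4 are its best known targets. MYC and MondoA belong to 1 extended network of paired helix-loop-helix factors.

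Gene counts per library ran from 15925885 to 25293884, and levels are given in CPM, the count scaled to the normalised library size. A log2 change is that from DMSO to JQ1, with its standard error after ±, and a gene was called when edgeR's quasi-likelihood test over 13975 genes gave a Benjamini-Hochberg adjusted p under 0.05. Of the 8 T-lineage markers checked, 7 were found in every library, and CD2 had 1.14 to 1.86 CPM in DMSO and at most 0.121 CPM in JQ1, within what a count of 0 allows. Their summed level was 1449 to 1687 CPM in DMSO and 787 to 1083 CPM in JQ1. TLX1 was found in every library, with 164 to 192 CPM in DMSO and 239 to 256 CPM in JQ1. The 12 myeloid, erythroid and epithelial markers stayed below 1 CPM in every library. Of the 5 B-lineage markers 3 stayed below 1 CPM, and the summed level was 11.5 to 24.5 CPM in DMSO and 1.61 to 6.34 CPM in JQ1. Of 4 fibroblast and endothelial markers 3 stayed below 1 CPM, and PECAM1, which some leukocytes also express, had 65.4 to 91.5 CPM in DMSO and 4.64 to 9.95 CPM in JQ1. The part of these markers in the results was not tested. In these bulk samples fewer cells of a type and less RNA per cell cannot be told apart.

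All 7 genes matched a RefSeq promoter window (GRCh38.p14, 250 bases before to 50 after a start site), with 10 windows in all, since TXNIP, ARRDC2 and ARRDC3 had a pair each. The windows were searched on both strands for the E-box CACGTG and for the layout of a carbohydrate response element, CACGNG and CNCGNG with 5 bases between them. The 3 genes with a match are shown because they are the pathway's central target, a further known target and the partner of MondoA, and ARRDC3 is shown as the gene with the largest rise and no match. Each stretch runs 5′ to 3′ on the gene's strand and ends before the gene's outermost annotated base in GENCODE release 29. Capitals mark the matches.
TXNIP, chr1:145996601-145996829, minus strand: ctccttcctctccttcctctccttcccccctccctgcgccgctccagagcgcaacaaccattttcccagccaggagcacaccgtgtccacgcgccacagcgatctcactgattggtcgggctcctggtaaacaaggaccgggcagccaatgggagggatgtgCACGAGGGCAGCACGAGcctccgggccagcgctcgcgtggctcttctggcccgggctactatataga
ARRDC4, chr15:97960453-97960697, plus strand: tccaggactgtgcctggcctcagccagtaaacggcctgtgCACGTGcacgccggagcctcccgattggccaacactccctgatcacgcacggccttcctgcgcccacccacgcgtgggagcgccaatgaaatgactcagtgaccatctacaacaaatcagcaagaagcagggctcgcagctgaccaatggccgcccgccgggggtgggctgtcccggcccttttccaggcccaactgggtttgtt
MLX, chr17:42566850-42567067, plus strand: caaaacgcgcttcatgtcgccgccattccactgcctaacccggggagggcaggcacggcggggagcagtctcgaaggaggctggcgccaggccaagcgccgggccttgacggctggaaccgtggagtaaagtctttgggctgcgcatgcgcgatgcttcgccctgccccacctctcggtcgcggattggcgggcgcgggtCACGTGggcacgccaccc
ARRDC3, chr5:91383360-91383567, minus strand: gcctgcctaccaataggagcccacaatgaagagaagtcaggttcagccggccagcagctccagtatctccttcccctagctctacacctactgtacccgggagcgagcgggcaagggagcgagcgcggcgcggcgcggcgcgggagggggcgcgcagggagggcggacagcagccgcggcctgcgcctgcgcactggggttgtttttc
The element layout of TXNIP begins 88 bases before its start site. Of all 35116 windows of the same length 0.501% held that layout. The E-box of ARRDC4 begins 210 bases and that of MLX 50 bases before the start site, and 7.26% of windows held an E-box. CCAAT, a motif added after the data were seen, was found on either strand in 7 of the 10 windows, against 34.6% of all windows. Each of the 7 genes had it in at least 1 window, and the share of all genes with it was not computed. TXNIP held 2 matches to CCAAT in its window and ARRDC4 held 3. A match is a description of the letters and was not tested as a binding site.

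ARRDC1, ARRDC3 and MLXIP rose under JQ1, and ARRDC2 and MLX fell. TXNIP and ARRDC4 did not pass the test on the groups, and both were called higher when libraries of the same number were compared as pairs. So 3 of the 7 genes were called higher and 2 lower, where 36.6% of all tested genes were called, 15.9% higher and 20.6% lower. The groups did not overlap for 3 genes that were higher and 2 that were lower, as for 48.9% of tested genes, 22.9% higher and 26% lower. With the replicate number as a block, 5 of the 7 were called higher and 2 lower, against 56.9% of all tested genes, 27.3% higher and 29.6% lower. All 3 pairs were higher in JQ1 for 5 of the 7, as for 35.7% of tested genes, though the first pair of ARRDC4 was level to 3 digits (68.2 CPM in both libraries), and lower for ARRDC2 and MLX, as for 36.7%.

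**Figure D1:**
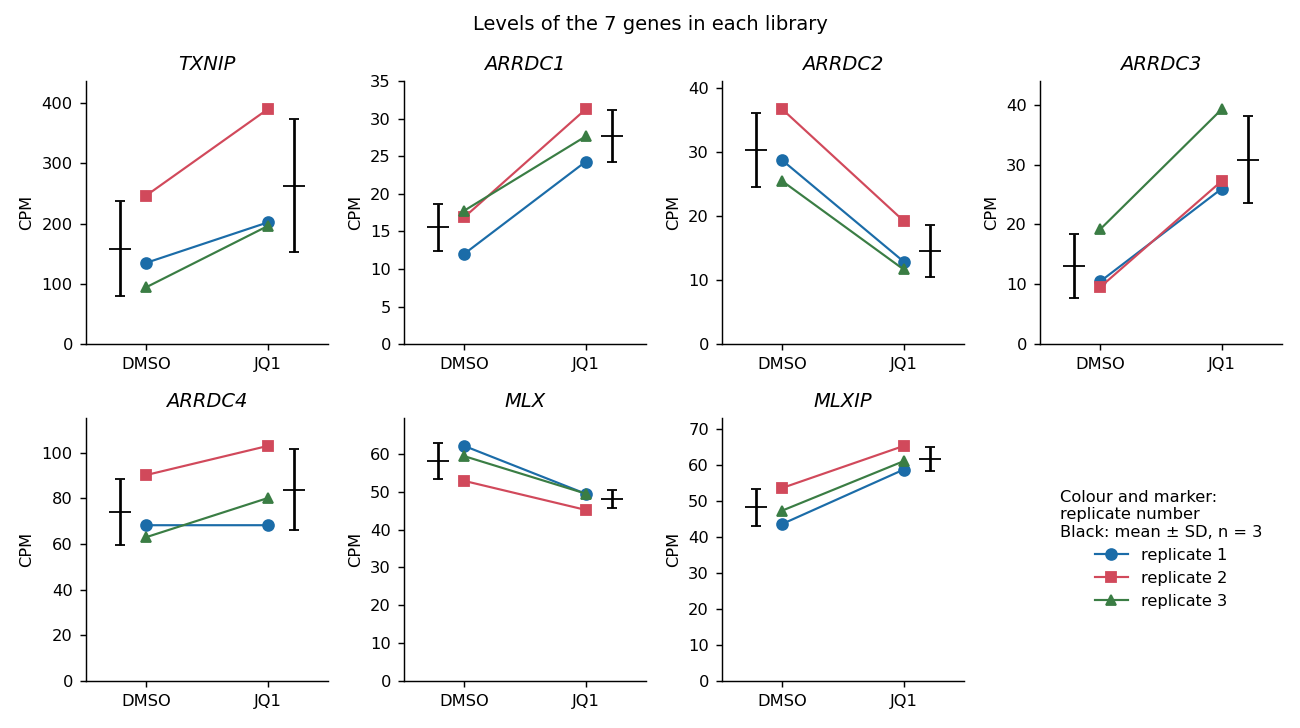
Level in CPM (vertical axis, from 0) of each of the 7 genes in the DMSO and JQ1 libraries, with a line joining libraries of the same replicate number and black marks for the mean ± SD of 3 libraries. TXNIP is highest in replicate 2 of both groups, at 247 and 389.6 CPM, so its groups overlap although each line rises.

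TXNIP (ENSG00000265972.5, chromosome 1, 145992435 to 145996600, minus strand) had the highest level of the family and the widest spread. It had 135, 247 and 94.5 CPM in DMSO replicates 1, 2 and 3. In JQ1 replicates 1, 2 and 3 it had 202, 389.6 and 196 CPM. Replicate 2 stood highest in both groups, and DMSO replicate 2 lay above JQ1 replicates 1 and 3, so the groups overlapped. The means were 159 ± 78.8 CPM in DMSO and 262 ± 110.1 CPM in JQ1 (SD, n = 3), which is 0.73 ± 0.42 on the log2 scale with a 95% interval from -0.30 to 1.75 (adjusted p = 0.23 in edgeR). Within pairs the JQ1 library was 1.5-fold, 1.58-fold and 2.07-fold above the DMSO library of its number. With the number as a block the log2 change was 0.76 ± 0.08 (edgeR adjusted p = 3.1e-08). Leaving out DMSO replicate 2 gave a called change of 1.2 (edgeR adjusted p = 0.047), and leaving out JQ1 replicate 2 gave 0.33 (edgeR adjusted p = 0.60).

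ARRDC4 (ENSG00000140450.8, chromosome 15, 97960698 to 97973838), the paralogue of TXNIP that also lowers glucose uptake, differed little between the groups. It had 68.2, 90.1 and 62.9 CPM in DMSO replicates 1, 2 and 3 and 68.2, 103 and 80.1 CPM in JQ1. Replicate 2 was the highest of each group, as for TXNIP, and the groups overlapped. The log2 change was 0.18 ± 0.17 (edgeR adjusted p = 0.45), with a 95% interval from -0.21 to 0.57. Without JQ1 replicate 2 it was 0.0047 and without DMSO replicate 2 it was 0.36, neither called (edgeR adjusted p = 0.99 and 0.12). The pair ratios were 1.00, 1.14 and 1.27, and with the block ARRDC4 was called at 0.18 ± 0.07 (edgeR adjusted p = 0.022). The blocked call was lost without the pair of number 2 (0.17, edgeR adjusted p = 0.072) or number 3 (0.11, edgeR adjusted p = 0.23).

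ARRDC3 (ENSG00000113369.8, chromosome 5, 91368724 to 91383359, minus strand), an adaptor for adrenergic receptors and other membrane cargo, had the largest rise of the 7. It had 10.5, 9.54 and 19.2 CPM in DMSO and 26.0, 27.3 and 39.3 CPM in JQ1 replicates 1, 2 and 3. Here replicate 3, not replicate 2, was the highest of each group, and the groups did not overlap. The mean was 13.1 ± 5.33 CPM in DMSO and 30.8 ± 7.32 CPM in JQ1, so ARRDC3 rose 2.34-fold (1.23 ± 0.28 on the log2 scale, edgeR adjusted p = 0.012). The pair ratios were 2.48, 2.86 and 2.04.

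ARRDC1 (ENSG00000197070.13, chromosome 9, 137605654 to 137615360), which recruits the ESCRT machinery to bud vesicles from the plasma membrane, rose as well. Its levels were 12, 16.9 and 17.8 CPM in DMSO and 24.3, 31.3 and 27.7 CPM in JQ1 replicates 1, 2 and 3. Every JQ1 library lay above every DMSO library. The rise was 1.78-fold (log2 change 0.83 ± 0.16, edgeR adjusted p = 0.0025), with pair ratios of 2.02, 1.85 and 1.56. A further annotated transcript, AL590627.2, overlaps 9617 bases of ARRDC1 on the same strand, and reads that fit both genes are not counted, so the ARRDC1 level may be too low.

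ARRDC2 (ENSG00000105643.9, chromosome 19, 18001132 to 18014102), a little studied member of the family, fell. It had 28.7, 36.7 and 25.5 CPM in DMSO and 12.9, 19.2 and 11.7 CPM in JQ1 replicates 1, 2 and 3, with no overlap. With means of 30.3 ± 5.78 CPM in DMSO and 14.6 ± 4.07 CPM in JQ1, the fall was 2.07-fold (log2 change -1.05 ± 0.20, adjusted p = 0.0032 in edgeR). The log2 changes within pairs were -1.16, -0.93 and -1.13, so the smallest and the largest differed by less than those of TXNIP did. ARRDC5, the remaining alpha-arrestin, had 1 read in the 6 libraries. A count of 0 allows up to 3 reads, which is 0.114 to 0.193 CPM in these libraries.

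MLXIP and MLX moved in opposite directions, by less than the ARRDC genes that were called. MLXIP (ENSG00000175727.13, chromosome 12, 122078722 to 122147347) had 43.6, 53.7 and 47.4 CPM in DMSO and 58.8, 65.3 and 61.1 CPM in JQ1 replicates 1, 2 and 3. It rose 1.28-fold (log2 change 0.36 ± 0.10, edgeR adjusted p = 0.017). The groups did not overlap, but the call was lost without JQ1 replicate 2 (0.31, edgeR adjusted p = 0.056) or DMSO replicate 1 (0.29, edgeR adjusted p = 0.062). MLX (ENSG00000108788.11, chromosome 17, 42567068 to 42573239) had 62.1, 52.9 and 59.4 CPM in DMSO and 49.5, 45.2 and 49.5 CPM in JQ1 replicates 1, 2 and 3. It fell 1.21-fold (log2 change -0.27 ± 0.09, edgeR adjusted p = 0.041). The MLX call was lost with DESeq2 (adjusted p = 0.064) and on leaving out any library other than DMSO replicate 2 (values of -0.29 to -0.22, with p from 0.073 to 0.13 after adjustment in edgeR). With the block both calls had smaller p-values (edgeR adjusted p = 2.4e-05 for MLXIP and 0.00073 for MLX).

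**Figure D2:**
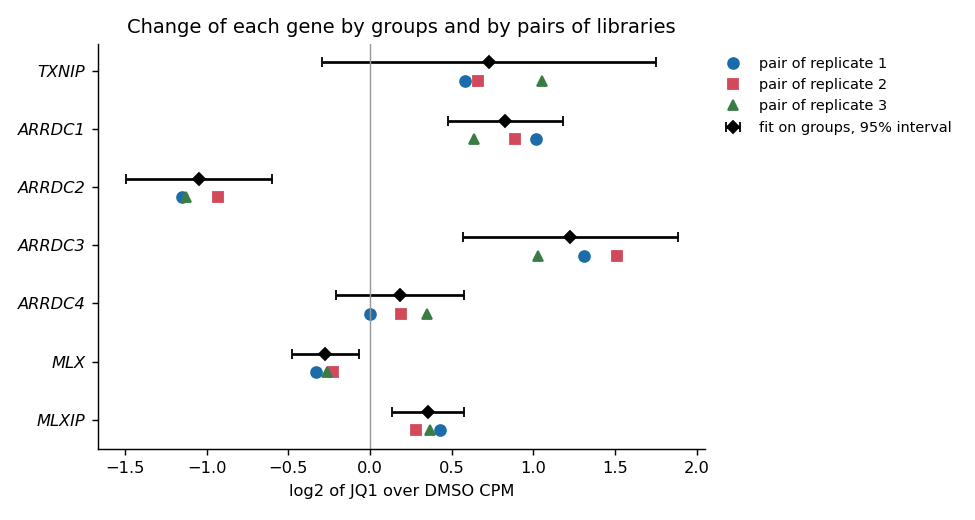
Log2 of JQ1 over DMSO CPM (horizontal axis) for each gene, as the fit on groups with its 95% interval (black) and as the ratio within each pair of libraries of the same number (coloured). The interval of TXNIP runs from -0.30 to 1.75, while its pair values lie between 0.58 and 1.05.

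The libraries of a group differed for TXNIP more than for most genes. The highest DMSO library had 2.61 times the TXNIP level of the lowest, and the highest JQ1 library 1.99 times. Of 8677 genes with a mean of at least 10 CPM, 0.161% had a wider range in DMSO and 1.31% in JQ1, and the median range was 1.18-fold and 1.17-fold. For each of the 7 genes the deviations had the same sign in both libraries of a number. Over all 13975 tested genes the deviations of a shared number also correlated (0.33 to 0.43). The share of tested genes with the same signs was not counted. TXNIP lay above its group mean by 0.75 in DMSO replicate 2 and 0.65 in JQ1 replicate 2 on the log2 scale, and ARRDC4 (0.31 and 0.32), ARRDC2 (0.29 and 0.43), ARRDC1 (0.14 and 0.18) and MLXIP (0.16 and 0.08) lay above theirs in the same libraries. ARRDC3 was below its mean there (-0.38 and -0.15) and above it in replicate 3 (0.62 in DMSO and 0.37 in JQ1). MLX was below its mean in replicate 2 (-0.13 and -0.09). ARRDC1 was highest in replicate 3 in DMSO (0.21) but near its mean there in JQ1 (0.0034). What the replicate number stands for is not given in the labels.

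**Figure D3:**
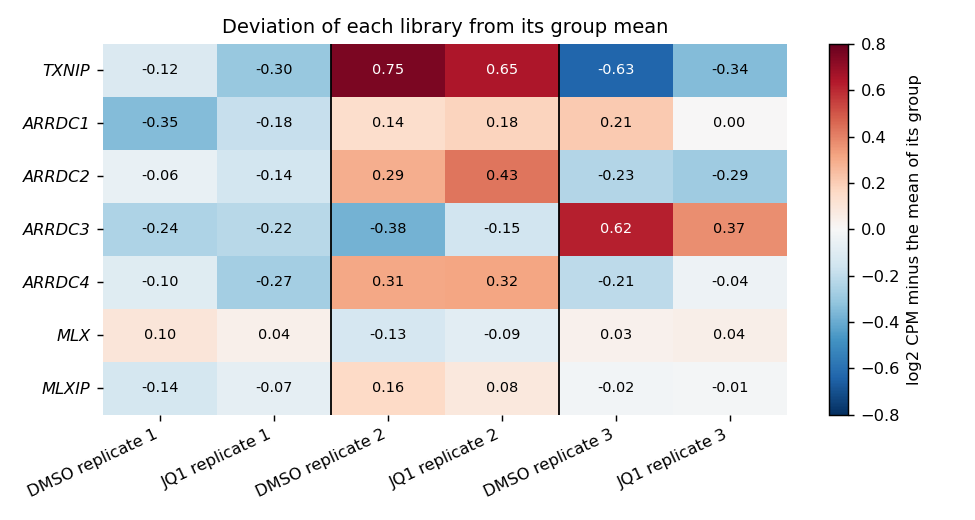
Deviation of each library from the mean of its group in log2 CPM (colour and printed value), with rows for genes and columns for libraries, and black lines between replicate numbers. TXNIP, ARRDC2 and ARRDC4 are above the mean in both libraries of replicate 2, and ARRDC3 is above it in both libraries of replicate 3.

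The genes with the profile most like that of TXNIP over the 6 libraries were sought by the root mean square difference of centred log2 CPM, among 9653 genes with a mean of at least 5 CPM. MXD3, a MAX partner that opposes MYC, came closest (0.10, where the median of all candidates was 0.67). MXD3 had 28.7, 43.3 and 20.5 CPM in DMSO and 41.4, 80.6 and 40.4 CPM in JQ1 replicates 1, 2 and 3, again highest in replicate 2. DLGAP5, a spindle protein (0.14), CCNG2, an unconventional cyclin (0.16), HMMR, a hyaluronan receptor and spindle protein (0.18), and the zinc finger gene ZNF35 (0.20) followed. None of these 5 passed edgeR's test on the groups (adjusted p from 0.11 for CCNG2 to 0.48 for HMMR), all 5 were called higher with the block, and DESeq2 called CCNG2 (adjusted p = 0.015). Without DMSO replicate 2, MXD3 and CCNG2 were also called (edgeR adjusted p = 0.0499 and 0.019). For ARRDC4 the closest were REXO5, MT-RNR1, NMNAT1, RN7SL2 and CEP112 (differences of 0.04 to 0.08, median of candidates 0.32). MT-RNR1 is the small ribosomal RNA of mitochondria, at 15559 to 23190 CPM in DMSO and 18186 to 26280 CPM in JQ1, and RN7SL2, a signal recognition particle RNA, has near-identical copies, so its level is uncertain. For MLXIP the closest were TNRC6C, FAM13B, CEP57L1, ZNF788P and DHRS7B, each with a difference of 0.04 (median of candidates 0.27). These 5 were called higher under JQ1, with log2 changes of 0.30 to 0.40, and TNRC6C, CEP57L1 and DHRS7B each lost the call when 1 of some libraries was left out (edgeR adjusted p from 0.055 to 0.10). With the block MT-RNR1 and CEP112 were also called higher (edgeR adjusted p = 0.023 and 0.043). All these genes were picked for their likeness over the same 6 libraries. Whether they were called therefore follows largely from that choice and is no separate result.

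Levels of different genes were compared per length, in TPM, a measure of transcript abundance scaled to the same sum in each library, computed with the merged exon length. In DMSO the order was TXNIP (124 ± 56.4 TPM), ARRDC4 (51.6 ± 8.0), MLX (39.2 ± 4.41), ARRDC2 (18.6 ± 2.74), ARRDC1 (11.7 ± 2.66), MLXIP (9.92 ± 0.955) and ARRDC3 (7.70 ± 3.57). The last 3 overlapped between libraries and were not told apart by their spread. By mean TPM over all 6 libraries of both groups, TXNIP ranked 541 of the 13975 tested genes. In JQ1 the order was TXNIP (187 ± 71.6 TPM), ARRDC4 (53.3 ± 9.02), MLX (29.5 ± 2.65), ARRDC1 (18.9 ± 1.55), ARRDC3 (16.3 ± 3.69), MLXIP (11.6 ± 0.225) and ARRDC2 (8.17 ± 2.02), with ARRDC1 and ARRDC3 overlapping between libraries. ARRDC2 thus moved from the third of the alpha-arrestins to the last, while TXNIP and ARRDC4 kept the top places. The order of ARRDC4 and MLX in DMSO depends on the length used: with the longest transcript it was 42.6 TPM for ARRDC4 and 53.1 TPM for MLX. With that length MLXIP (13.5 TPM) also stood above ARRDC1 (11.6 TPM) in DMSO, and in JQ1 the libraries of MLXIP (15.7 to 16.4 TPM) overlapped those of ARRDC3 (13.7 to 20.3 TPM), and those of MLX and ARRDC4 overlapped too.

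TXNIP made up most of the summed alpha-arrestin TPM in every library but DMSO replicate 3, with 56.9%, 65.1% and 46.9% in DMSO and 64.1%, 71.4% and 59.1% in JQ1 replicates 1, 2 and 3. The share was higher in JQ1 within each number, but the groups overlapped (2-sided exact permutation p = 0.3). ARRDC2 gave 9.46%, 7.58% and 9.89% in DMSO and 3.20%, 2.76% and 2.75% in JQ1. The ARRDC2 groups did not overlap, and the 2-sided exact permutation p = 0.1 is the smallest that 3 libraries against 3 allow. The ratio of ARRDC3 to ARRDC2 was 0.343, 0.245 and 0.709 in DMSO and 1.89, 1.33 and 3.16 in JQ1 (2-sided exact permutation p = 0.1). ARRDC3 was therefore the scarcer of these paralogues in every DMSO library and the more abundant in every JQ1 library. The ratio of ARRDC4 to TXNIP was 0.450, 0.325 and 0.593 in DMSO and 0.301, 0.235 and 0.364 in JQ1, lower within each number though the groups overlapped (2-sided exact permutation p = 0.2). The ratio of MLXIP to MLX was 0.215, 0.311 and 0.244 in DMSO and 0.364, 0.443 and 0.378 in JQ1, with no overlap (2-sided exact permutation p = 0.1). For ARRDC3 to ARRDC2 and for MLXIP to MLX, each gene's TPM was already separated between the groups, in opposite directions. The separation of these ratios and their p-values follow from that and are no further result. Over the 9 shares, sums and ratios tested, the Benjamini-Hochberg adjusted permutation p lay between 0.3 and 0.5.

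**Figure D4:**
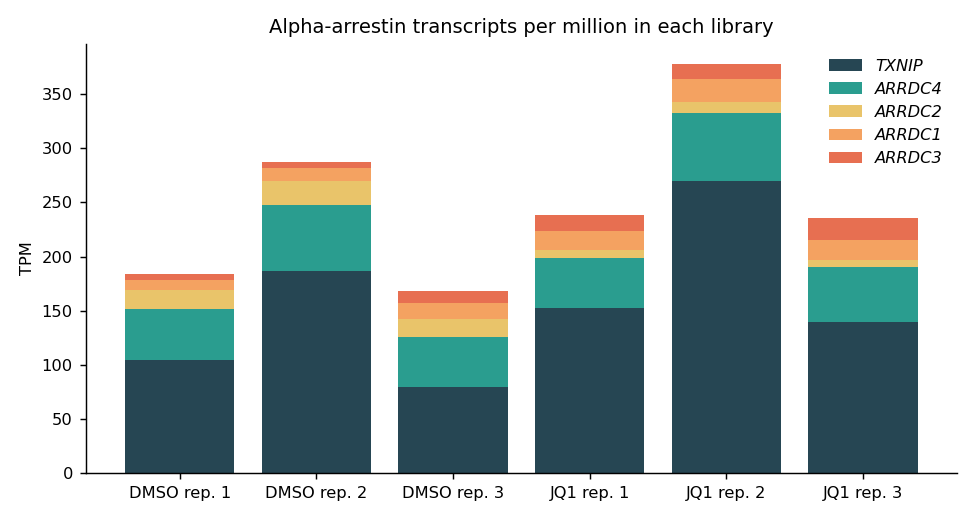
Stacked TPM (vertical axis, from 0) of the 5 counted alpha-arrestin genes in each library. TXNIP forms 46.9% to 71.4% of each bar, and the ARRDC2 segment is smaller in the 3 JQ1 libraries (2.75% to 3.20%) than in the 3 DMSO libraries (7.58% to 9.89%).

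Among the further partners in the MondoA, MLX and MAX network, 10 of 13 genes were tested, and 2 were called higher and 2 lower, MLXIP and MLX included, with a median log2 change of 0.09 against 0.00 over all tested genes. With the block 4 were higher and 2 lower, and 1 was higher without JQ1 replicate 2 or DMSO replicate 1 and 1 lower where MLX lost its call. Over all tested genes 15.9% were called higher and 20.6% lower, and 27.3% and 29.6% with the block. MYC fell, with a log2 change of -1.41 ± 0.10 (edgeR adjusted p = 1.4e-05). MXD1, a MAX partner that opposes MYC, rose by 1.17 ± 0.15 from a DMSO level of 12.9 ± 2.62 CPM (edgeR adjusted p = 3e-04). MXD3 stood at 0.81 ± 0.37 (edgeR adjusted p = 0.14, and 2.1e-09 with the block), and MXD4 at 0.40 ± 0.16 (edgeR adjusted p = 0.083, and 5e-05 with the block). MXD3 was also called without DMSO replicate 2 (edgeR adjusted p = 0.0499). MXD4 was also called without JQ1 replicate 3 (edgeR adjusted p = 0.016) and with no filter (edgeR adjusted p = 0.0028). MAX itself had 120 ± 4.20 and 122 ± 2.23 CPM. MLXIPL, which encodes the MondoA paralogue ChREBP, had 0 reads.

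Glucose uptake and the handling of hexose phosphates, which MondoA senses, showed a mixed picture. Of 17 tested genes 5 were higher and 5 lower, with a median log2 change of 0.10, and with the block 7 were higher and 6 lower. The shares over all tested genes were 15.9% higher and 20.6% lower, and 27.3% and 29.6% with the block. The named falls were those of HK2, a hexokinase (-1.48 ± 0.23), SLC2A3, a glucose carrier (-0.92 ± 0.17), and the phosphofructokinase genes PFKP (-0.40 ± 0.08) and PFKM (-0.80 ± 0.21), with edgeR adjusted p from 0.00075 to 0.012. Among the rises, and named after their values were seen, were those of ADPGK and HK1, which phosphorylate glucose, and of PFKFB1 and PFKFB3, which make a regulator of phosphofructokinase, with log2 changes of 0.28 to 1.28 and edgeR adjusted p from 0.02 to 0.045. The largest of these values is that of PFKFB1, a gene at 0.448 ± 0.209 CPM in DMSO and 1.09 ± 0.421 CPM in JQ1. The groups overlapped for PFKFB1 and for PFKFB3. PFKFB1 was not called with DESeq2 (adjusted p = 0.051) or limma-voom (adjusted p = 0.055). At most 2 genes of the list were called higher when any 1 library was left out, and 0 without JQ1 replicate 2. When counts were scaled by library size alone, 1 gene was called higher, and limma-voom called 2. SLC2A1, the main carrier that TXNIP acts on in many cells, had 60.3 ± 3.24 CPM in DMSO and 64.6 ± 4.31 CPM in JQ1 (0.10 ± 0.09, edgeR adjusted p = 0.41).

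In the thioredoxin system, which TXNIP inhibits by binding thioredoxin, 1 of 16 tested genes rose and 5 fell, and with the block 5 were higher and 6 lower. The number higher ran from 0 to 3 when 1 library was left out, and was 3 with DESeq2 and 4 with upper-quartile scaling. Among all tested genes 15.9% were called higher and 20.6% lower, and 27.3% and 29.6% with the block. MSRB3, a methionine sulfoxide reductase, fell from 8.90 ± 0.679 to 3.49 ± 0.215 CPM. TXNRD2, the mitochondrial thioredoxin reductase, fell (log2 change -1.30 ± 0.23), as did the peroxiredoxin genes PRDX4 (-0.97 ± 0.21) and PRDX5 (-0.55 ± 0.10). TXNRD1, the cytosolic reductase, named after its value was seen, was the 1 that rose (0.52 ± 0.14, edgeR adjusted p = 0.015). It was not called when JQ1 replicate 1 (edgeR adjusted p = 0.059) or DMSO replicate 2 (edgeR adjusted p = 0.052) was left out. TXN, the thioredoxin that TXNIP binds, had 127 ± 2.57 and 114 ± 1.64 CPM (-0.16 ± 0.08, edgeR adjusted p = 0.13, and 0.023 with the block). TXN was also called when counts were scaled by library size alone (edgeR adjusted p = 0.047).

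Of 8 tested NEDD4 family ligases and adaptors, which arrestins recruit, 1 rose and 2 fell, and with the block 3 were higher and 2 lower. Without DMSO replicate 1, 2 were higher. Over all tested genes the shares were 15.9% higher and 20.6% lower, and 27.3% and 29.6% with the block. NEDD4 had 95.4 ± 7.70 CPM in DMSO and 134 ± 5.76 CPM in JQ1, a rise of 0.49 ± 0.09 (edgeR adjusted p = 0.0018). SMURF2, a further ligase, and NDFIP2, a membrane adaptor of the family, fell (log2 changes of -0.32 ± 0.08 and -0.84 ± 0.23). The SMURF2 call was lost without DMSO replicate 2 (edgeR adjusted p = 0.052). For NDFIP1, a further adaptor, the value was 0.26 ± 0.09 (edgeR adjusted p = 0.056, and 0.00063 with the block, and from 0.033 to 0.048 with other scalings or filters that called it). ITCH, the ligase known to ubiquitinate TXNIP, had 67.3 ± 5.69 CPM in DMSO and 71.7 ± 4.87 CPM in JQ1 (edgeR adjusted p = 0.48).

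Of 15 tested ESCRT genes, some of them partners of ARRDC1 in vesicle budding, 2 rose and 5 fell, with a median log2 change of -0.10, and with the block 3 were higher and 6 lower. The falls numbered 3 without JQ1 replicate 1 or DMSO replicate 2, and the rises 1 without JQ1 replicate 1, JQ1 replicate 2 or DMSO replicate 3. By comparison, 15.9% of all tested genes were called higher and 20.6% lower, and 27.3% and 29.6% with the block. MVB12B and MVB12A, alternative subunits of ESCRT-I, fell (log2 changes of -1.04 ± 0.14 and -1.08 ± 0.19), and so did STAM2 of ESCRT-0 (-0.66 ± 0.15), while VPS37A of ESCRT-I rose by 0.33 ± 0.08 (edgeR adjusted p from 0.00037 to 0.0081). TSG101, the subunit that ARRDC1 binds, had 32.6 ± 0.739 and 38.1 ± 3.04 CPM (0.22 ± 0.09, edgeR adjusted p = 0.087, and 0.012 with the block).

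Of the 5 genes with other arrestin folds 1 rose and 2 fell, and with the block 2 were higher and 2 lower. The shares of all tested genes were 15.9% higher and 20.6% lower, and 27.3% and 29.6% with the block. ARRB1, a beta-arrestin that ends receptor signalling, had 70.3 ± 9.97 CPM in DMSO and 20.4 ± 7.87 CPM in JQ1, and its fall (-1.78 ± 0.25, edgeR adjusted p = 0.0012) was the largest among the tested genes of the 9 lists. Its paralogue ARRB2 fell as well (-0.43 ± 0.10). The log2 changes of the retromer genes were VPS26A (0.31 ± 0.10, edgeR adjusted p = 0.031), VPS26B (0.20 ± 0.09, edgeR adjusted p = 0.095, and 0.0068 with the block) and VPS26C (-0.12 ± 0.11, edgeR adjusted p = 0.41). VPS26A was not called when JQ1 replicate 1 or 3 or replicate 1 or 3 of DMSO was left out (0.062 to 0.091 in edgeR), when counts were scaled by library size alone (edgeR adjusted p = 0.072) or with no filter (edgeR adjusted p = 0.077). Of 14 tested kinase and stress partners of TXNIP 1 rose and 2 fell, and with the block 2 were higher and 4 lower. The same shares of all tested genes stand beside these counts. PRKAG1, a regulatory subunit of AMPK, rose from 38.7 ± 2.56 to 70.9 ± 1.97 CPM, while PRKAG2, its paralogue (log2 change -1.41 ± 0.30), and AKT2 (-0.53 ± 0.09) fell. DDIT4, a stress gene whose product binds TXNIP, stood at -0.39 ± 0.15 (edgeR adjusted p = 0.074, and 2.3e-06 with the block). DDIT4 was also called without JQ1 replicate 2 (edgeR adjusted p = 0.0068), but not without any other single library. It was called too when counts were scaled by library size alone (edgeR adjusted p = 0.035) and with no filter (edgeR adjusted p = 0.0011).

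**Figure D5:**
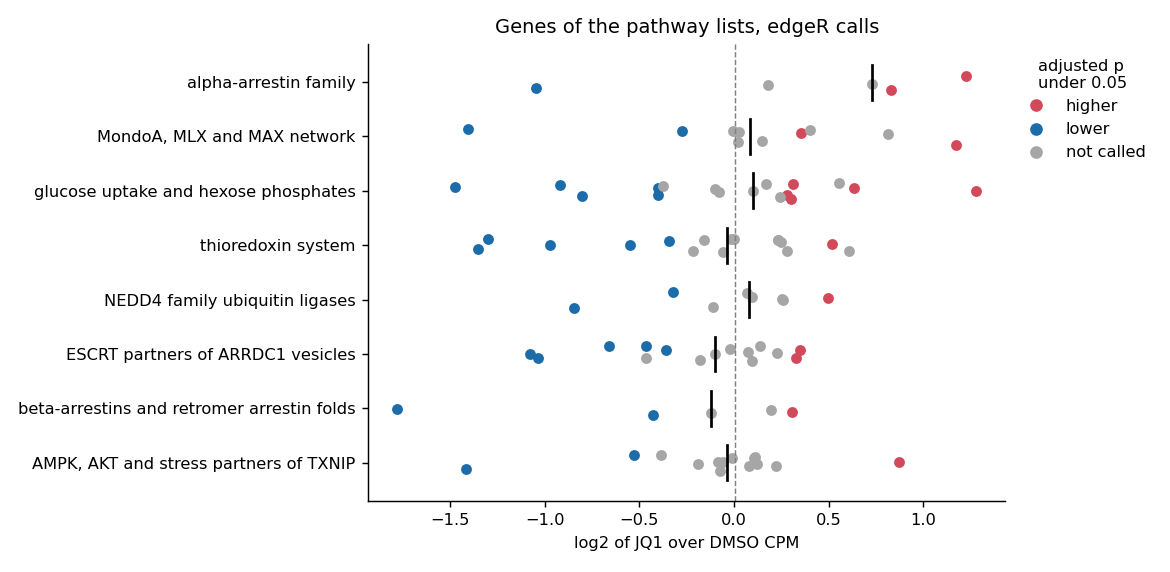
Log2 of JQ1 over DMSO CPM (horizontal axis) for each tested gene of the 8 pathway lists, coloured by its edgeR call, with a black bar at each list's median and a dashed line at the median of all tested genes. The medians of the 7 lists other than the alpha-arrestins lie between -0.12 and 0.10, near the 0.00 of all genes.

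Antisense genes lie at ARRDC1 and ARRDC3. ARRDC3-AS1, which overlaps 3011 bases of ARRDC3 on the other strand, had 11 to 17 reads in DMSO and 21 to 28 reads in JQ1, and its log2 change was 1.05 ± 0.33 (edgeR adjusted p = 0.03). It was not called with DESeq2 (adjusted p = 0.061), when both strands were counted (edgeR adjusted p = 0.13), or when replicate 2 or 3 of JQ1 or replicate 1 or 3 of DMSO was left out (0.069 to 0.094 in edgeR). ARRDC1-AS1 had 20.5 ± 1.37 CPM in DMSO and 22.6 ± 0.675 CPM in JQ1 (0.14 ± 0.10, edgeR adjusted p = 0.31). The 7 genes kept their direction when both strands were counted together.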

How the data were processed

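Total RNA of 6 libraries, 3 per group, was analysed. Library preparation used a kit that keeps the strand, per the labels' protocols. The deposited files hold raw counts of reads per gene, unstranded and for each strand, with GRCh38 as the build per the submitters' processing notes. The layout is that of the STAR aligner's gene counts, which leave out reads fitting several places or genes. Aligner version, annotation release and trimming: not given in the sources used here. Counts of the reverse-strand column were taken as sense, as they were 20.9 to 22.6 times those of the other strand. Read classes stayed out of totals: unmapped 1.48% to 1.99%, mapped to several places 14.1% to 15.7%, in no gene 18.8% to 26.1% and ambiguous 3.38% to 3.88%.

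Of 58096 identifiers 57447 matched GENCODE release 29 without their version, and all 7 genes matched with it. Genes passing filterByExpr (minimum count 10, total 15) were scaled by TMM. The test was the quasi-likelihood test (robust glmQLFit, then glmQLFTest) of edgeR 4.0.16 under R 4.3.3 with group as the single term and Benjamini-Hochberg adjusted p. SE is the log2 change over the square root of F. Every pair of libraries in a group differed beyond sampling noise (chi-square over degrees of freedom 13.8 to 28.6). Deviations from group means correlated across genes for each shared number (0.33 for number 1, 0.43 for 2 and 0.37 for 3), so the numbers were taken as pairs. All other combinations were negatively correlated. Centring on 3 libraries forces this on average once shared numbers correlate, so it adds no support. This pairing comes from the data. A blocked fit served as an alternative. The others were DESeq2 1.42.0, limma-voom (limma 3.58.1), other scalings and filters, unstranded counts and each library left out. Leaving out both libraries of a number was added after the data were seen. The procedure was tested on simulated data.

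The genes and the 9 lists (114 genes, 92 tested) were chosen with earlier results of these data known. Named genes were the 7, the 4 with the smallest p of each list, all tested genes of lists of up to 6, and the 5 with the most similar profile to TXNIP, ARRDC4 and MLXIP. MAX, MLXIPL, MXD4, SLC2A1, ADPGK, HK1, PFKFB1, PFKFB3, TXN, TXNRD1, ITCH, TSG101 and PSMC3IP were named outside this rule, after their values were seen. A planned search for protein motifs was not run, and 1 gene of the lists is counted but not reported here. A gene at 0 reads may share its reads with an overlapping gene. The reads carry no molecular identifiers, so limits on counts cover counting error only.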

Additional observations from a re-analysis of the deposited data

Results flagged for a closer look

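Reads on the strand opposite to MLX were above every DMSO library in each JQ1 library, with 13.9 ± 2.48 CPM in JQ1 (11.1 to 15.7) and 8.08 ± 2.81 CPM in DMSO (4.95 to 10.4), whereas MLX itself fell. PSMC3IP, which lies on that strand and overlaps 925 bases of MLX, had 16.4 ± 5.15 CPM in DMSO and 27.9 ± 5.14 CPM in JQ1 (log2 change 0.77 ± 0.24, edgeR adjusted p = 0.035), a value that missed the threshold without JQ1 replicate 1 or 3 (edgeR adjusted p = 0.10 and 0.099), with both strands counted together (0.060) and with scaling by library size alone (0.053). Its part in the opposite-strand reads was not tested.

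Reads opposite to ARRDC3 were also higher in each JQ1 library, at 0.711 ± 0.267 CPM against 0.218 ± 0.152 CPM, though on at most 19 reads in a library. The lowest JQ1 library (0.404 CPM) lay just above the highest DMSO library (0.393 CPM). Differences between groups in opposite-strand reads were not tested. For TXNIP, ARRDC2, ARRDC4 and MLXIP at most 4 opposite-strand reads were counted in any library. ARRDC1 had opposite-strand reads at 28.9% to 96.7% of its sense count, with 10.6 ± 2.29 CPM in JQ1 and 9.14 ± 2.34 CPM in DMSO.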

How the results depend on the processing

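All 7 genes kept the sign of their change under the 18 alternatives, ARRDC4 by as little as 0.0047 (without JQ1 replicate 2), and ARRDC1, ARRDC2 and ARRDC3 also their calls. With the replicate block 3813 genes were called higher, against 2227 by groups alone, and 5 of the 7 genes were higher against 3. The TXNIP change was 0.76 with the block, and 0.85, 0.82 and 0.63 with the block and without the pairs of number 1, 2 and 3, each called. Without the pair of number 1 or 3, 3392 and 3434 genes were called higher, and without number 1, 5 of the 7 genes. DESeq2 called 1 of the 7 lower against 2, MLX being lost. Leaving out 1 library gave 1707 to 1901 genes higher and 2436 to 2627 lower, 2 to 4 of the 7 genes higher and 1 to 2 lower, and TXNIP changes of 0.33 to 1.2 (edgeR adjusted p from 0.047 to 0.60). The block changed no call of a named gene other than those given with it. Among 56 further genes the log2 change turned for NMNAT1 (-0.023 to 0.37 with 1 library left out, negative without JQ1 replicate 2) and MAX (-0.036, library size only), neither called. With NACGTG in place of CACGTG 3 of the 7 genes had a promoter match (3 of 10 windows, against 21.4% of all windows). With CACG all 7 had a match (9 of 10 windows, against 67% of all windows). With CACGTG 2 had a match (2 of 10 windows, against 7.26% of all windows). The cause of these shifts was not tested. Depth limits ARRDC3-AS1, which had 11 to 28 reads a library.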
